A study of Mus musculus with 3 samples.

Results

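The insulin-like growth factor (IGF) genes measured here were 2 ligands (*Igf1*, *Igf2*), 1 receptor (*Igf1r*) and 6 binding proteins (*Igfbp2* to *Igfbp7*). They were the rows of the gene table that carry these symbols, 9 of 32285 genes, and all 9 had UMIs (unique molecular identifiers, 1 per captured mRNA molecule) in every library. scRNAseq had been done on flexor digitorum longus (FDL) tendons of the mouse hind paw, a tissue mostly of collagen-producing tenocytes with a thin sheath, the epitenon, around it. There were 3 libraries, each from 16 pooled tendons of both sexes and 1 library per group. All mice were labelled C57BL/6J. Group names give the age in months (M). The 6 M WT group (*Scx*-Cre-; DTR F/+) and the 6 M DTR group (*Scx*-Cre+; DTR F/+) had both received 5 daily injections of diphtheria toxin (DT) at 3 months of age. Their labels give 3 months as the age, whereas the paper describes these tendons as 6 months old, collected 3 months after the toxin. In 6 M DTR, Cre driven by the *Scx* promoter switches on the DT receptor in cells of the *Scx* lineage, so that the toxin kills them, and this Cre is not inducible by a drug, so any cell that once used the promoter can carry the receptor. The 21 M B6 mice had no transgene and no toxin. Tendons were digested for 120 min in 6 M WT and 90 min in the other groups, so digestion time cannot be told apart from group. The comparisons asked how the IGF genes differ between cell classes, after *Scx*-lineage depletion, and in old age.

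IGF1 and IGF2 are secreted growth factors that signal through the receptor tyrosine kinase IGF1R to promote protein synthesis, survival and proliferation. IGF binding proteins hold the ligands outside the cell, where they can keep them from the receptor, prolong their life or deliver them locally; proteases that cut the binding proteins release the ligand. In tendon, IGF1 is known to stimulate collagen synthesis by tendon fibroblasts, and IGFBP7 is a matrix-associated protein that binds IGFs with lower affinity than the classical binding proteins.

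The libraries held 12273 to 16099 barcodes and 92707026 to 148149903 UMIs, and 8357 (6 M WT), 6554 (6 M DTR) and 4798 (21 M B6) cells remained after the filters (1000 to 5000 genes, at most 10% mitochondrial UMIs), with medians of 12328 to 13008 UMIs per cell. The mitochondrial limit was passed by 27.6% (6 M WT), 43.1% (6 M DTR) and 56.5% (21 M B6) of barcodes. Between 13 and 15 kept cells of any library pair carried the same barcode. Cells were put in classes by their own markers, 10 per class, with at least 3 detected and a lead of at least 2 over any other class. Tenocyte-like cells numbered 5499, 2888 and 948 (first 6 M WT, second 6 M DTR, last 21 M B6, the order used throughout), epitenon-like cells 972, 933 and 2385, macrophage-like cells 640, 1165 and 529, endothelial-like cells 157, 151 and 137, and mural-like cells (pericytes and vascular smooth muscle) 150, 202 and 50. The summed level of the 10 tenocyte markers was 19319, 22437 and 18693 CPM (UMI counts scaled by the total of the class) in tenocyte-like cells against 1745, 1237 and 1198 CPM in epitenon-like cells. For the 10 epitenon markers the order turned round, at 5032, 4944 and 4776 CPM in epitenon-like against 1039, 797 and 1263 CPM in tenocyte-like cells. These markers also set the classes, so the order itself was fixed in advance and is no check of them. A further 713, 753 and 550 cells passed no gate.

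A level below is a gene's UMIs relative to all UMIs of the class, also in CPM, with an exact 95% Poisson interval in brackets. Intervals cover counting error only, and they are too narrow where a few cells hold most of a gene's UMIs, which is stated for the main cases. With 1 library per group there is no replicate error and no test, so a ratio between libraries compares those libraries, and "past 2-fold" is a size, not a significance. Because reads come from 3′ ends without length correction, each gene is compared across classes and libraries, and genes are not compared with each other.

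The upstream sequences of *Igfbp3* and *Igf2* are shown because these genes were the only members past 2-fold lower in 6 M DTR in both epitenon-like and endothelial-like cells. Each is 250 bases that end just before a transcription start in RefSeq on GRCm38.p6, read 5′ to 3′ on the minus strand. *Igfbp3* has 1 start in the table (chr11:7213924-7214173). Of the 4 *Igf2* windows, those with a match to any searched motif are given (start 3, chr7:142658805-142659054; start 4, chr7:142657497-142657746). Capitals mark the TATA motif TATAAA, the CCAAT motif or the GC motif GGGCGG, searched on both strands.
Igfbp3: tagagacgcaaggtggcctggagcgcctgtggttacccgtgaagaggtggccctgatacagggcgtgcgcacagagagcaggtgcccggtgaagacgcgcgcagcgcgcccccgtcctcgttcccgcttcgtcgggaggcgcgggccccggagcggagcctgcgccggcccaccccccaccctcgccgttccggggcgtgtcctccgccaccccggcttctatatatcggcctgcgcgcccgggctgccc
Igf2 start 3: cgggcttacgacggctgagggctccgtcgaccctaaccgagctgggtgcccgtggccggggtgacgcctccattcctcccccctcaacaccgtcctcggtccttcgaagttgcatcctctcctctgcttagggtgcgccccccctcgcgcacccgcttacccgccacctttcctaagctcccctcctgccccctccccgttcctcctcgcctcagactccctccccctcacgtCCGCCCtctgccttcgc
Igf2 start 4: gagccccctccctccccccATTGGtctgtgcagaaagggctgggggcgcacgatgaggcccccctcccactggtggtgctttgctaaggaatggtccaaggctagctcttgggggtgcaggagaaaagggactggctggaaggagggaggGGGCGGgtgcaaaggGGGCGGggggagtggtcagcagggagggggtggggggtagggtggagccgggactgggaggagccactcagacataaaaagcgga

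The *Igfbp3* window held no exact match to the 3 motifs and had 32 CpG dinucleotides, more than 95.4% of the 32851 windows in the table, where the median was 6. Only exact matches were searched, so the stretch tatatat near the end of the *Igfbp3* window was not marked. *Igf2* start 3 had 22 CpG and a GC motif on the opposite strand, and start 4 had 6 CpG, 2 GC motifs and a CCAAT motif on the opposite strand. Of all windows, 12.4% held TATAAA, 33.8% CCAAT and 32.7% GGGCGG. The windows are a description, and 3′ counts do not tell which *Igf2* start was used.

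*Igf1*, the main ligand of the postnatal body, was highest in epitenon-like cells in all 3 libraries. There it stood at 538 [527–550.2], 375 [365–385] and 484 [477–491] CPM, so that 6 M DTR was the lowest library. Tenocyte-like cells had 125 [122–127], 80.2 [77.4–83.1] and 131 [124–138] CPM. Macrophage-like cells had 65.8 [60.9–71.0], 76.1 [71.9–80.4] and 102 [94.5–109] CPM, and the intervals of tenocyte-like and macrophage-like cells overlapped only in 6 M DTR. After thinning every cell to 2000 UMIs, *Igf1* was detected in 50.0%, 39.2% and 46.8% of epitenon-like cells (77.2%, 67.7% and 76.1% unthinned) and in 18.4%, 13.5% and 19.5% of tenocyte-like cells. In T cell-like cells, which should lack it, the thinned share was 1.60%, 0.94% and 1.18% (median depths 9955, 7900 and 9699 UMIs, against 15658, 16260 and 14340 in epitenon-like cells). The epitenon and tenocyte shares were thus above the free-RNA background, and so were the macrophage shares of 9.84%, 14.4% and 16.4%.

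**Figure D1:**
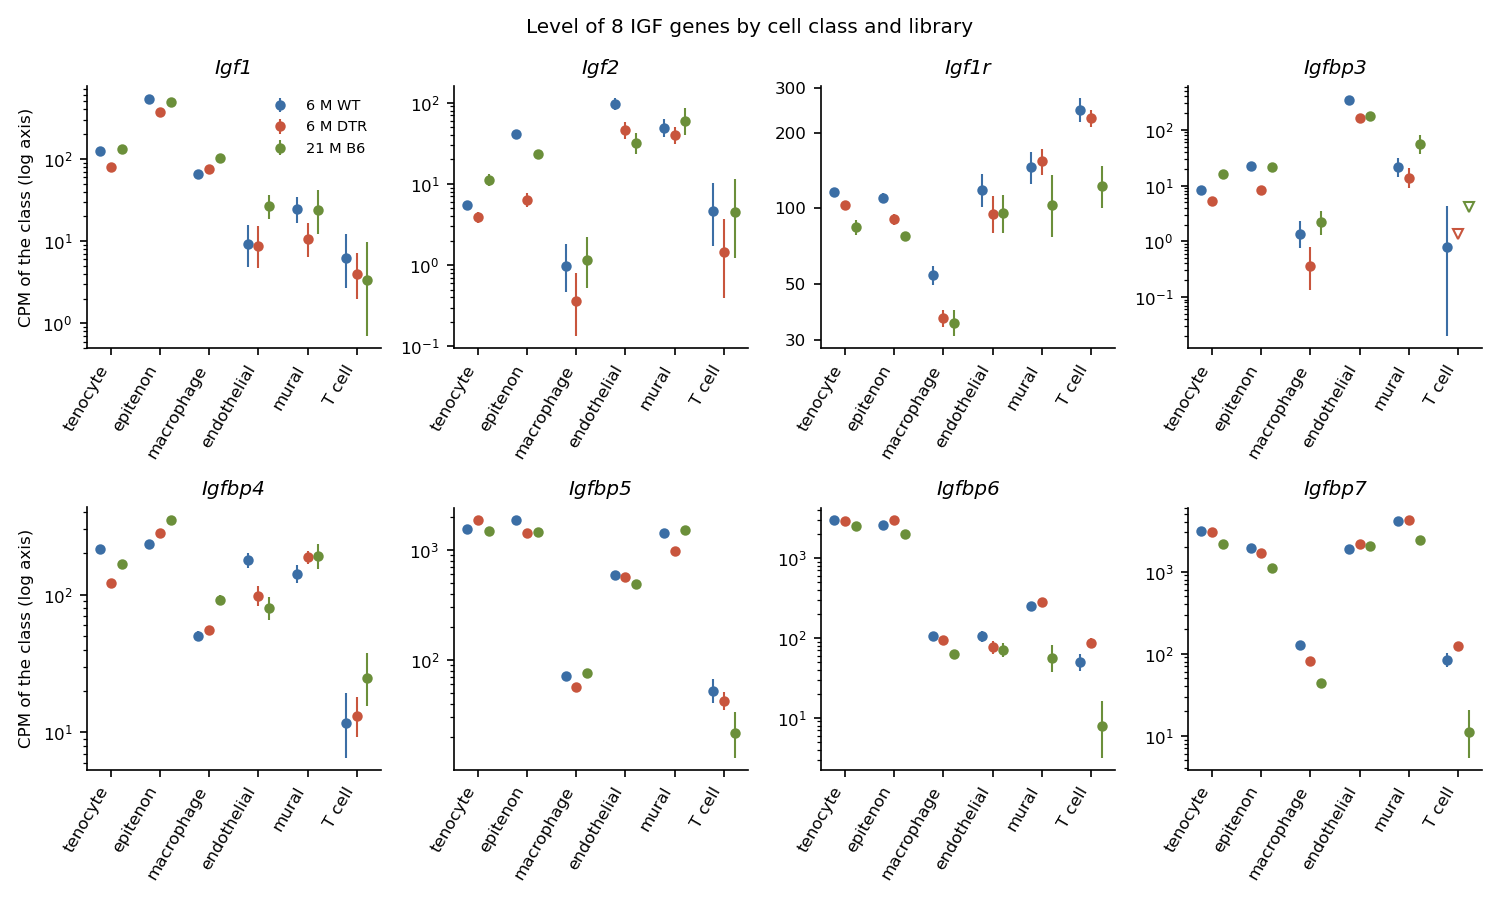
Level of 8 IGF genes (CPM, log axis) in 6 cell classes, with 1 point per library in 3 colours, exact 95% Poisson intervals as bars, and open triangles for upper limits of classes with 0 UMIs. *Igf1* peaks in epitenon-like cells, *Igfbp3* in endothelial-like cells and *Igfbp7* in mural-like cells in every library.

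In 6 M DTR *Igf1* was lower than in 6 M WT in both fibroblast classes. The ratio was 0.643 [0.617–0.670] in tenocyte-like cells, below which lay 4.89% of the genes compared, and 0.696 [0.672–0.720] in epitenon-like cells, below which lay 4.09%. In macrophage-like cells, a well-known other source of IGF1, it was 1.16 [1.05–1.27]. In 21 M B6 the ratios to 6 M WT were 1.05 [0.992–1.11] in tenocyte-like, 0.899 [0.876–0.923] in epitenon-like (1.09 with TMM scaling) and 1.54 [1.39–1.71] in macrophage-like cells, the last above 93.8% of genes. This macrophage ratio was 1.76 [1.55–2] within cells with *Xist* and 1.17 [0.916–1.49] within cells with Y-linked genes, where the interval includes 1. The summed level of the 4 neutrophil markers in macrophage-like cells was 1006, 32.3 and 191 CPM, highest in 6 M WT, and its part in the macrophage ratios was not tested. The 21 M B6 ratios are read against a median over all genes of −0.26 log2 in both fibroblast classes, −0.09 in macrophage-like, −0.22 in endothelial-like and −0.24 in mural-like cells, whereas the 6 M DTR medians lay between −0.07 and 0.03.

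*Igf2*, the ligand best known for fetal growth and imprinting, was low in every class and followed another order. Its level in endothelial-like cells was 97.2 [81.7–115], 46.0 [35.7–58.3] and 32.1 [23.5–42.8] CPM, and in mural-like cells 49.0 [37.7–62.6], 40.1 [31.4–50.5] and 59.7 [40.3–85.2] CPM. Only in 6 M WT did the endothelial-like cells stand clear of the mural-like cells. Epitenon-like cells had 41.2 [38.0–44.5], 6.39 [5.17–7.81] and 23.6 [22.0–25.2] CPM, from 630, 95 and 838 UMIs, whose intervals did not overlap. Tenocyte-like cells had 5.52, 3.87 and 11.3 CPM and macrophage-like cells 0.978, 0.362 and 1.16 CPM, which were not clear of the 4.68, 1.46 and 4.50 CPM of T cell-like cells (upper limits 10.2, 3.73 and 11.5 CPM). Thinned shares with a UMI were 7.32%, 1.39% and 4.65% of epitenon-like cells (29.1%, 7.07% and 17.4% unthinned) against 0.8%, 0% and 1.18% of T cell-like cells. The T cell share of 0 of 319 in 6 M DTR allows up to 1.15%, so in 6 M DTR the epitenon level was clear of background but its thinned share, with an interval from 0.745%, was not.

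The *Igf2* difference in epitenon-like cells was the widest between 6 M DTR and 6 M WT among the members in tenocyte-like, epitenon-like, macrophage-like, endothelial-like and mural-like cells. In Schwann-like cells (64 and 66 cells) *Igfbp6* was as far down, at 439 and 63.4 CPM from 176 and 24 UMIs, a ratio of 0.144 [0.0901–0.222]. For *Igf2* in epitenon-like cells the ratio was 0.155 [0.124–0.193], and only 0.0522% of the genes compared had a lower one. Under 12 other settings it ran from 0.107 to 0.218. The 5 cells richest in *Igf2* held 8.41%, 18.9% and 5.49% of its UMIs there. The 21 M B6 ratio to 6 M WT was 0.572 [0.515–0.635], and the ratio of 21 M B6 to 6 M DTR was 3.69 [2.98–4.61]. In endothelial-like cells both groups were past 2-fold lower than 6 M WT, at 0.473 [0.349–0.637] and 0.330 [0.231–0.463], on 139, 68 and 46 UMIs of which 5 cells held 36.7%, 32.4% and 54.3%.

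*Igf1r*, the receptor of both ligands, was spread across classes with a narrower range. It stood at 117 [114–119], 103 [99.6–106] and 84.0 [78.7–89.5] CPM in tenocyte-like cells, and at 109.8 [105–115], 90.4 [85.6–95.3] and 77.7 [74.8–80.6] CPM in epitenon-like cells. These neighbours overlapped except in 6 M DTR, where tenocyte-like cells were higher. Endothelial-like cells had 118, 94.7 and 95.5 CPM, mural-like cells 146, 154 and 104 CPM, and T cell-like cells 246, 228 and 123 CPM. Schwann-like cells had 309 and 211 CPM in the 6 M libraries, overlapping T cell-like cells there, and T cell-like cells overlapped mural-like cells in 21 M B6. Macrophage-like cells were lowest in each library, at 54.2 [49.7–58.9], 36.6 [33.7–39.6] and 35.1 [31.0–39.5] CPM. In the tenocyte-like, epitenon-like, macrophage-like, endothelial-like and mural-like classes *Igf1r* was not past 2-fold. In T cell-like cells the 21 M B6 ratio was 0.498 [0.397–0.621], just past it. The ratios to 6 M WT were 0.882 and 0.720 in tenocyte-like, 0.823 and 0.707 in epitenon-like and 0.675 and 0.647 in macrophage-like cells for 6 M DTR and 21 M B6.

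*Igfbp2*, a binding protein with some preference for IGF2, was close to absent. It had 42, 40 and 30 UMIs over all kept cells of the libraries. In 6 M DTR, 28 of the 40 lay in 4 cells that passed no gate, 13 of them in 1 cell. Tenocyte-like cells held 30, 3 and 1 of its UMIs and epitenon-like cells 6, 3 and 22. Endothelial-like cells held 0, which allows up to 2.58, 2.50 and 2.57 CPM, and no ratio is given for this gene, which was under the limit for comparison.

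*Igfbp3*, which carries most IGF in blood plasma, was highest in endothelial-like cells of every library. Its level there was 344 [314–376], 167 [147–189] and 178 [157–201] CPM, with thinned shares of 27.1%, 19.9% and 20.4% (43.3%, 35.1% and 45.3% unthinned; median depths 8301, 8539 and 8429 UMIs). The T cell shares were 0.8%, 0% and 0%. 6 M WT stood above the overlapping values of 6 M DTR and 21 M B6, with ratios of 0.486 [0.415–0.567] and 0.517 [0.442–0.602]. The 5 richest cells held 47.2%, 46.6% and 28.6% of these UMIs, and the 6 M DTR ratio moved to 0.697 with a mitochondrial limit of 5%.

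In epitenon-like cells *Igfbp3* was at 22.1 [19.8–24.6], 8.34 [6.93–9.94] and 22.0 [20.4–23.6] CPM. The 6 M DTR library was the low one, with a ratio of 0.377 [0.305–0.465], below which lay 0.54% of genes, while the 21 M B6 ratio was 0.994 [0.873–1.13] (1.21 with TMM scaling). Few cells carried it: 57, 18 and 116 epitenon-like cells had a UMI, and 5 cells held 51.2%, 65.3% and 32.0% of the UMIs. With a stricter gate (5 markers, lead of 4) the 6 M DTR ratio was 0.793 and the 21 M B6 ratio 2.41. The small subset with *Gdf10* and *Inmt*, described below, went against the 6 M DTR direction. Tenocyte-like cells had 8.40, 5.27 and 16.0 CPM of *Igfbp3*, and mural-like cells 21.4, 13.9 and 55.7 CPM from 8, 2 and 13 cells.

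*Igfbp4*, which mostly restrains IGF action until the protease pregnancy-associated plasma protein A cuts it, was highest in epitenon-like cells of every library. It stood at 232 [225–240.1], 283 [275–292] and 347 [341–353] CPM, so that both 6 M DTR and 21 M B6 were above 6 M WT, with ratios of 1.22 [1.16–1.27] and 1.49 [1.44–1.55], above 92.4% and 96% of genes, although within cells with *Xist* the 6 M DTR ratio was 0.949. In tenocyte-like cells the 6 M DTR direction was the opposite, at 214 [211–217], 122 [118–125] and 167 [159–175] CPM. The ratios there were 0.569 [0.551–0.588] in 6 M DTR, below which lay 2.74% of genes, and 0.779 [0.742–0.817] in 21 M B6, below which lay 35.5% of genes and which was 1.32 in Y cells. Endothelial-like cells had 178 [157–202], 98.1 [82.8–115] and 80.1 [66.2–96.2] CPM, with 21 M B6 past 2-fold lower at 0.450 [0.358–0.562]. Macrophage-like cells had 50.1 [45.8–54.6], 55.2 [51.7–58.9] and 92.1 [85.5–99.1] CPM, against 11.7, 13.1 and 24.8 CPM in T cell-like cells, and the 21 M B6 ratio of 1.84 [1.64–2.06] lay above 96.8% of genes.

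*Igfbp5*, a binding protein that attaches to extracellular matrix, was abundant in fibroblast and mural classes. Tenocyte-like cells had 1540 [1531–1549], 1870 [1856–1884] and 1482 [1459–1505] CPM. Epitenon-like cells had 1872 [1850–1893], 1438 [1419–1458] and 1444 [1432–1457] CPM. The order of the 2 classes therefore turned round from 6 M WT to 6 M DTR, with ratios of 1.21 [1.20–1.23] in tenocyte-like and 0.768 in epitenon-like cells, against 0.977 and 1.02 within cells with Y-linked genes. With the stricter gate tenocyte-like and epitenon-like cells of 6 M WT were level, at 1527 and 1526 CPM, so the order was then not clear in that library. Thinned shares did not follow the tenocyte level (67.0%, 62.8% and 66.0% of cells). Mural-like cells had 1418, 974 and 1528 CPM, and the 6 M DTR ratio was 0.687 [0.643–0.734]. Endothelial-like cells had 588, 572 and 485 CPM, of which 5 cells held 64.2%, 52.0% and 53.7%.

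*Igfbp6*, a binding protein that prefers IGF2, was detected in nearly every fibroblast. Thinned shares were 95.1%, 94.5% and 94.3% of tenocyte-like cells (99.8%, 99.7% and 99.6% unthinned) and 91.4%, 95.8% and 88.8% of epitenon-like cells, against 11.2%, 9.72% and 2.35% of T cell-like cells. Its level was 2994 [2981–3006], 2908 [2891–2925] and 2506 [2477–2536] CPM in tenocyte-like and 2566 [2541–2592], 3014 [2986–3042] and 1972 [1957–1987] CPM in epitenon-like cells. In epitenon-like cells 6 M DTR was above 6 M WT (1.17) and 21 M B6 below it (0.768). Mural-like cells had 254, 284 and 55.7 CPM, but 5 cells held 81.9%, 84.1% and 78.6% of those UMIs, so the 21 M B6 ratio of 0.219 [0.143–0.323] rests on few cells.

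*Igfbp7* was highest in mural-like cells and next in tenocyte-like cells of every library. The mural-like class fell under 50 cells, and gave no value, in 21 M B6 with the stricter gate and in 6 M WT and in 21 M B6 with a mitochondrial limit of 5%, where tenocyte-like cells were then highest. Mural-like cells had 4142 [4032–4254], 4234 [4140–4330] and 2458 [2322–2598] CPM and tenocyte-like cells 3116 [3103–3129], 3081 [3064–3099] and 2202 [2175–2230] CPM. Epitenon-like cells had 1968 [1946–1990], 1698 [1678–1720] and 1119 [1108–1130] CPM. In these 3 classes 21 M B6 was the lowest library, with ratios to 6 M WT of 0.593 [0.557–0.631], 0.707 [0.698–0.716] and 0.568 [0.560–0.577]. Of all genes compared, 18.7% lay below the tenocyte ratio and 2.19% below the epitenon ratio. Endothelial-like cells did not share the direction, at 1867 [1796–1939], 2154 [2080–2230] and 2061 [1987–2136] CPM, or 1.15 and 1.10 times 6 M WT.

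In macrophage-like cells *Igfbp7* stood at 127 [120–134], 82.4 [78.1–86.9] and 43.7 [39.2–48.6] CPM, and the 21 M B6 ratio of 0.344 [0.305–0.388] was past 2-fold. T cell-like cells were also lowest in 21 M B6, at 85.0, 124 and 11.3 CPM, but highest in 6 M DTR (1.46 [1.17–1.83] times 6 M WT). The summed tenocyte markers in macrophage-like cells were 550.1, 385 and 134 CPM, with *Kera* at 0 in 21 M B6. After the T cell level was subtracted the ratio was 0.775. The part of free tenocyte RNA in this result was not tested.

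Members past 2-fold were counted by class, where at least 20 CPM in 1 of the libraries was required. A member that reached this in 1 library only could be past 2-fold only as higher in that library. Through 6 M WT alone this held for *Igf2* and *Igfbp3* in epitenon-like and *Igf1* in mural-like cells (6 M DTR), and *Igfbp6* and *Igfbp7* in T cell-like cells (21 M B6). Through 21 M B6 alone it held for *Igf1* in endothelial-like and *Igfbp4* in T cell-like cells. In tenocyte-like cells 0 of 6 members were past 2-fold in 6 M DTR (3.49% of all genes compared) and 0 of 6 in 21 M B6 (5.22%). In epitenon-like cells 2 of 8 were in 6 M DTR, *Igf2* and *Igfbp3*, both lower (1.34% of all genes), and 0 of 8 in 21 M B6 (2.72%). In macrophage-like cells the counts were 0 of 6 in 6 M DTR (1.79%) and 1 of 6 in 21 M B6, *Igfbp7* (5.57%). The members' median log2 ratio in epitenon-like cells was −0.33 in 6 M DTR beside 0.01 over all genes, and −0.38 in 21 M B6 beside −0.26.

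The vascular classes are smaller, and more of all genes were past 2-fold in them. In endothelial-like cells 2 of 7 members were past 2-fold in 6 M DTR, *Igf2* and *Igfbp3*, both lower (2.52% of all genes). In 21 M B6 3 of 8 were (9.1%), with *Igf2* and *Igfbp4* lower and *Igf1* higher, the latter at 9.09 CPM from 9 cells of 6 M WT against 26.5 CPM from 14 cells of 21 M B6, a ratio of 2.91 that was 1.23 with the stricter gate. In mural-like cells 1 of 8 was past 2-fold in 6 M DTR (5.59%), *Igf1* at 24.5 and 10.6 CPM from 4 and 9 cells, whose direction turned round with the stricter gate (3.1). In 21 M B6 2 of 8 were (16.4%), with *Igfbp6* lower and *Igfbp3* higher at a ratio of 2.60 [1.48–4.55]; with no upper limit of genes these ratios were 0.745 and 1.31. The summed mural markers in endothelial-like cells were 1164, 1252 and 3024 CPM and the summed red cell markers 45.4, 2861 and 3722 CPM, and their part in these ratios was not tested.

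Both other classes with at least 50 cells in the libraries compared were small. In T cell-like cells (125, 319 and 85) 0 of 4 members were past 2-fold in 6 M DTR (2.92% of all genes) and 5 of 5 in 21 M B6 (11.3%). *Igfbp4* was higher there, at 2.12 [1.05–4.39] from 22 and 15 UMIs, and *Igf1r*, *Igfbp5* (0.410), *Igfbp6* (0.158) and *Igfbp7* (0.133) were lower. In 21 M B6 the last 3 genes had 19, 7 and 10 UMIs. T cell-like cells also served above as the free-RNA background for binding proteins. The summed tenocyte markers in them were 259.6, 402.3 and 50.66 CPM, and the part of free RNA in these ratios was not tested. In Schwann-like cells, 3 of 5 members were past 2-fold lower in 6 M DTR (14.1% of all genes): *Igfbp4* (0.368), *Igfbp5* (0.376) and *Igfbp6* (0.144).

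**Figure D2:**
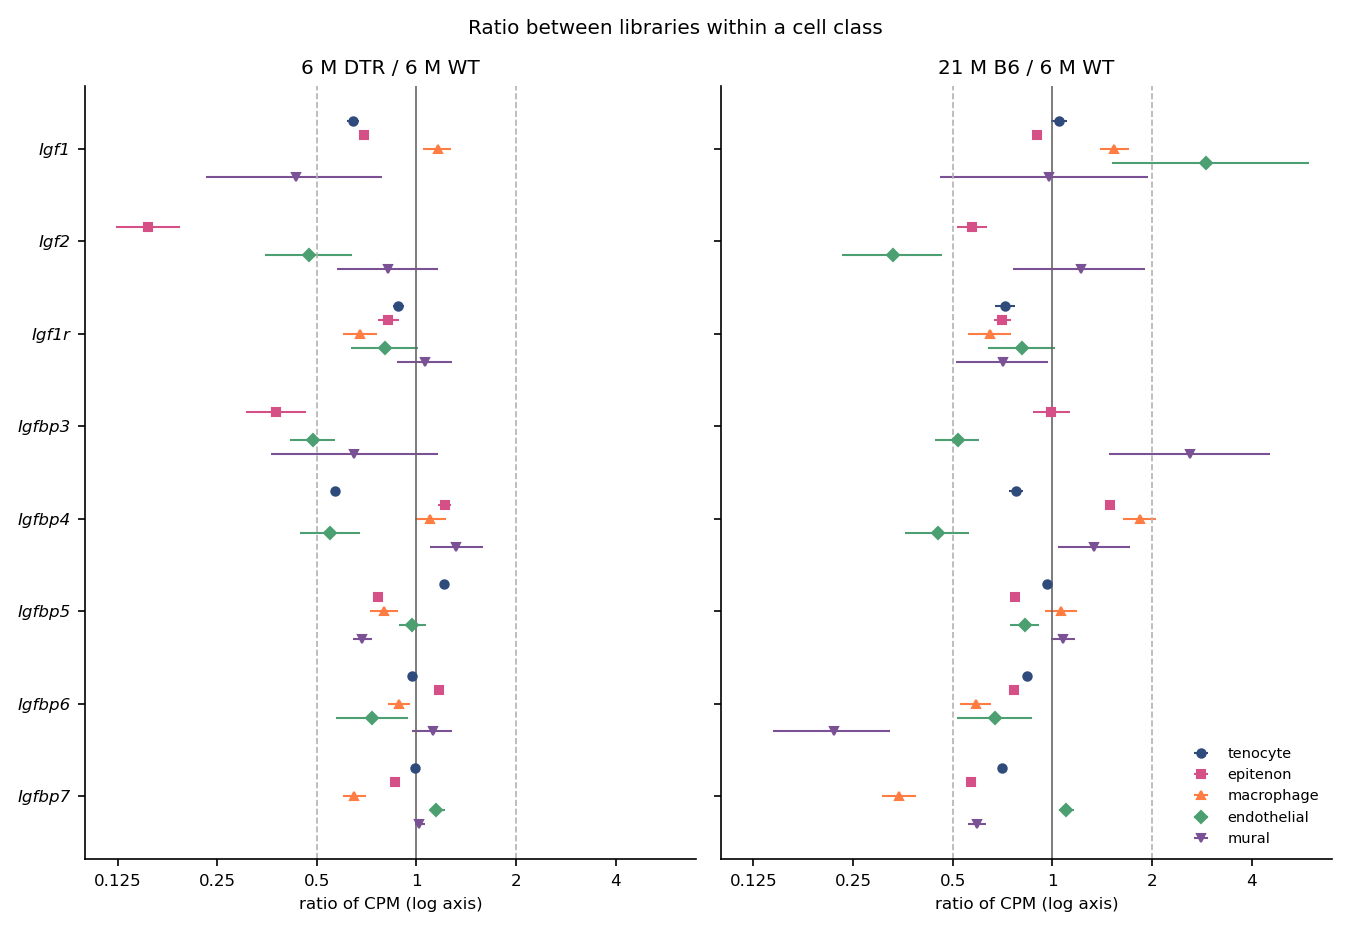
Ratio of each IGF gene's level in 6 M DTR or 21 M B6 to 6 M WT (log axis) within 5 cell classes, with exact 95% intervals as bars and dashed lines at 0.5 and 2. Most ratios lie between the lines, and *Igf2* in epitenon-like cells of 6 M DTR, at 0.155, lies farthest below them.

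Over whole libraries, the share of each gene's UMIs by class can be read beside the makeup of the cells. Tenocyte-like cells gave 65.2%, 44.2% and 17.1% of all UMIs and epitenon-like cells 13.5%, 17.3% and 54.1%. *Igf1* leaned further to the epitenon, with 41.1%, 49.0% and 82.3% of its UMIs there and 46.1%, 26.8% and 7.03% in tenocyte-like cells. Its level over all kept cells was highest in 21 M B6, at 176, 132 and 319 CPM, although the epitenon level itself was not. *Igfbp4* had 72.3%, 38.1% and 11.1% of its UMIs in tenocyte-like cells and 16.2%, 34.7% and 73.4% in epitenon-like cells, and 193, 141 and 256 CPM over all cells. *Igfbp7* went the other way over all cells, at 2586, 2050 and 1239 CPM, with 78.5%, 66.4% and 30.4% of its UMIs from tenocyte-like cells. Of *Igfbp3*, 24.3%, 27.6% and 15.6% came from endothelial-like cells, and 26.0%, 31.1% and 22.5% from cells that passed no gate.

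**Figure D3:**
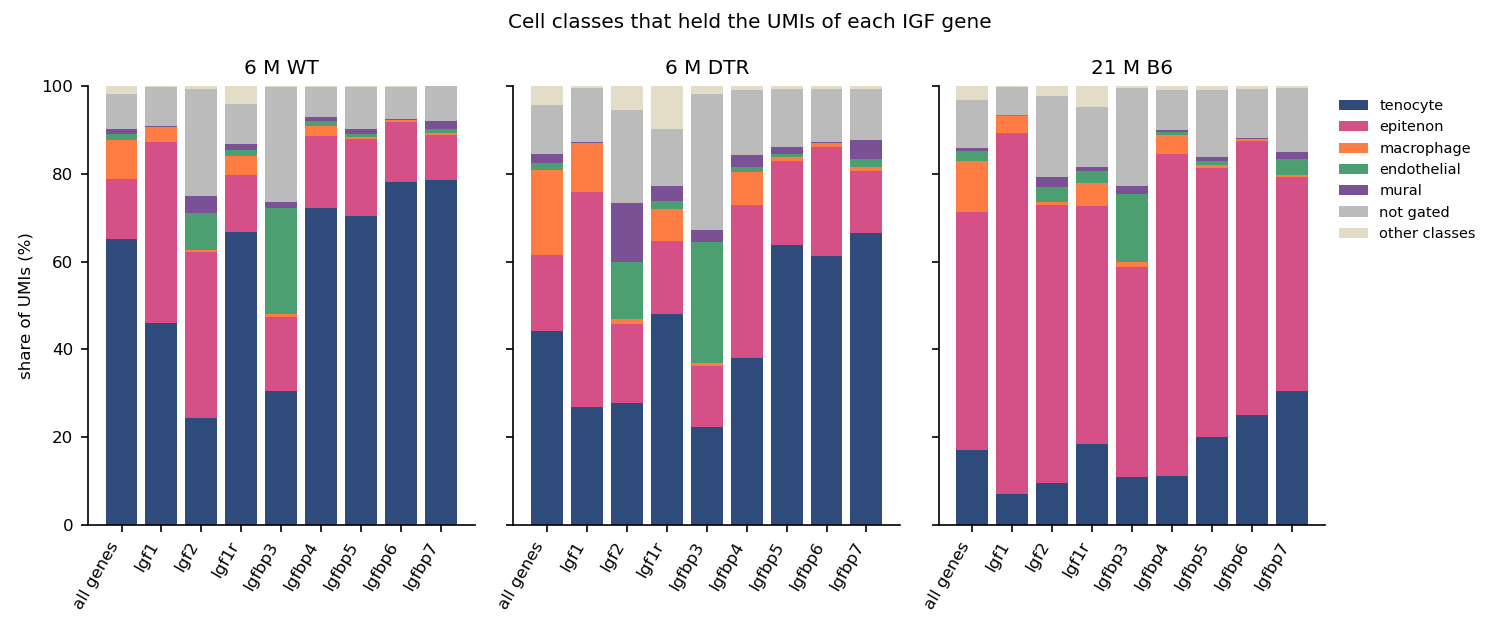
Share of each gene's UMIs (percent, stacked) by cell class in each library, with all genes together as the first bar. Epitenon-like cells held 82.3% of *Igf1* UMIs in 21 M B6 against 54.1% of all UMIs.

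Epitenon-like cells differed among themselves. Cells with *Gdf10* and *Inmt* (41, 29 and 286 cells) were high in *Igf1*, at 874, 919 and 772 CPM against 528, 363 and 449 in the other epitenon-like cells. Their *Igfbp3* was 37.0, 175 and 97.4 CPM against 21.6, 4.61 and 12.7 CPM, ratios of 1.71 [0.983–2.78], 37.9 [26.2–54.8] and 7.69 [6.67–8.87]. *Igf2* was also higher in them (1.67, 3.00 and 2.27 times) and *Igfbp5* lower, at 707, 699 and 611 CPM against 1908, 1455 and 1547. *Igfbp5* and *Igfbp3* thus separated these cells in opposite directions in each library, although the 6 M WT interval of *Igfbp3* includes 1. The class-wide lower *Igfbp3* of 6 M DTR was not seen in this subset, at 37.0 CPM (6 M WT, 41 cells) and 175 CPM (6 M DTR, 29 cells). The other epitenon-like cells had 21.6 and 4.61 CPM. These values rest on few cells. In the whole class 57 cells of 6 M WT and 18 of 6 M DTR had an *Igfbp3* UMI. There 5 cells held 51.2% and 65.3% of the UMIs, so the intervals are too narrow. *Igf1* did not drop in the subset either (874 and 919 CPM), unlike in the others (528 and 363 CPM). The cause was not tested.

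Cells with *Pi16*, a gene of adventitial fibroblasts (74, 68 and 313 cells), were also high in *Igf1*, at 893, 829.7 and 610 CPM against 512, 347 and 465. They were higher in *Igfbp4* (1.66, 1.35 and 1.69 times) and *Igfbp5* (1.23, 1.77 and 1.96 times) and lower in *Igfbp7* (0.587, 0.496 and 0.661 times) than the other epitenon-like cells. Cells with *Krtdap* and *Ccn3* (657, 628 and 1501) were the larger share of the class. They were low in *Igfbp3*, at 5.60, 3.98 and 7.39 CPM against 60.8, 17.4 and 47.7, and low in *Igf2*, at 31.5, 5.78 and 17.6 CPM against 63.8, 7.66 and 34.0, while *Igfbp6* was higher in them (1.28, 1.16 and 1.19 times). The lower *Igf2* of 6 M DTR was thus seen both in this subset and in the other epitenon-like cells.

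**Figure D4:**
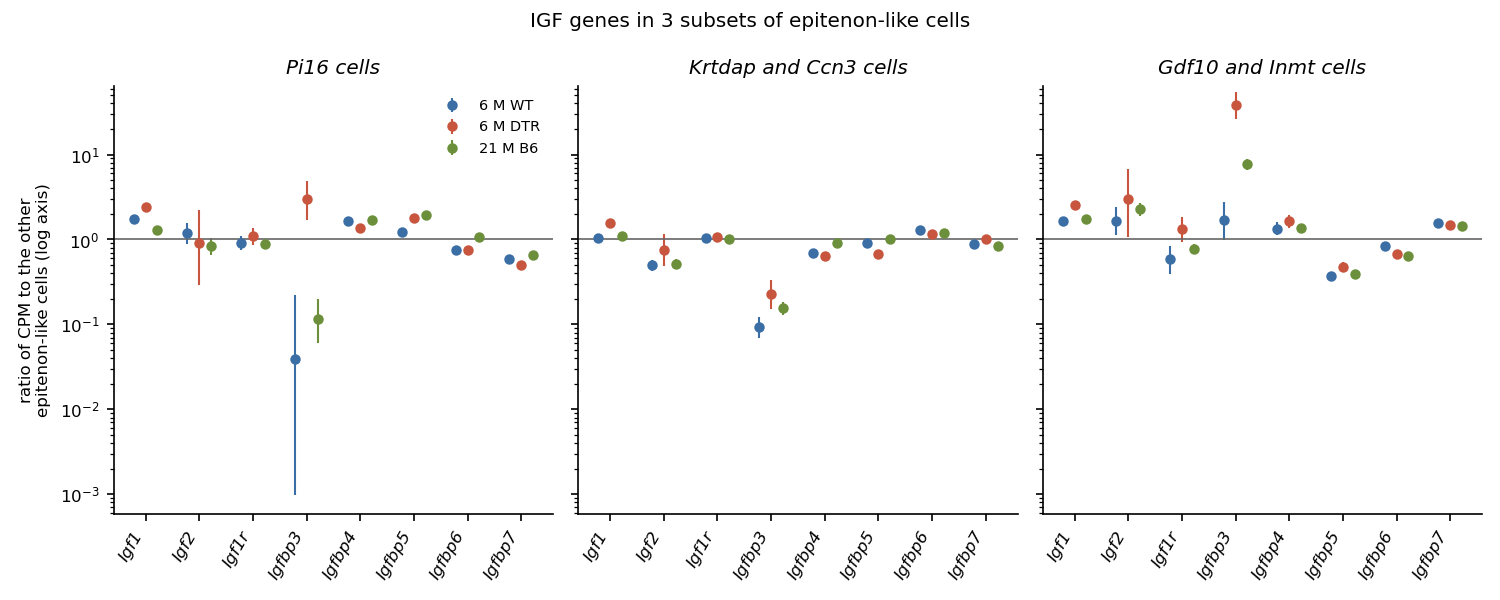
Ratio of each IGF gene's level in a subset of epitenon-like cells to the other epitenon-like cells (log axis) for cells with *Pi16*, with *Krtdap* and *Ccn3*, and with *Gdf10* and *Inmt*, with 1 point per library and exact 95% intervals. *Igfbp3* spans the widest range, from 0.0391 (*Pi16* cells, 6 M WT) to 37.9 (*Gdf10* and *Inmt* cells, 6 M DTR).

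Tenocyte-like cells with *Slurp1*, *Serpinb7* and *Vcan* (1165, 366 and 55 cells) had less *Igf1* in the 6 M libraries, at 49.5 and 35.2 CPM against 146 and 87.5, but not in 21 M B6 (149 against 129.6 CPM). Their *Igfbp6* was 1.36, 1.5 and 1.15 times that of other tenocyte-like cells. Cells with *Kera* and *Ucma* (199, 55 and 28) had more *Igf1* in the 6 M libraries, at 297 and 244 CPM against 118 and 77.0, with 104 against 132 CPM in 21 M B6. In cells with the acute phase genes *Saa1*, *Saa2* and *Lcn2* (1025, 185 and 79), *Igf2* was 0.479, 0.336 and 0.670 times and *Igfbp6* 0.801, 0.866 and 0.943 times the level of the others. The *Igf2* level of tenocyte-like cells was, however, not clear of the T cell background. *Scn7a*, a sodium channel gene, was found in 1, 6 and 0 tenocyte-like cells. Among cells that passed no gate, *Scn7a* was counted without thinning, so the numbers of cells cannot be set beside those of tenocyte-like cells. Those with at least 2 UMIs (35, 40 and 42, a choice made after the data had been seen) had 392, 122 and 149 CPM of *Igfbp3* against 40.2, 25.0 and 41.0 in the rest.

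Macrophage-like cells with the MHC class II genes *H2-Aa*, *H2-Ab1*, *H2-Eb1* and *Cd74* (81, 260 and 114 cells) had less *Igf1* than the others in every library, at 24.6, 55.9 and 25.4 CPM against 71.4, 82.1 and 125. *Igfbp4* followed the same split, at 12.3, 33.6 and 27.6 CPM against 55.2, 61.7 and 112. From 6 M WT to 21 M B6 *Igf1* thus differed in the other macrophage-like cells and hardly in this subset. Among endothelial-like cells, those with *Selp*, a venous adhesion molecule (24, 33 and 12), had 31.5, 13.1 and 287 CPM of *Igfbp3* against 435, 236 and 163, so that the direction in 21 M B6 was opposite to the 6 M libraries. Cells with the arterial genes *Gja5*, *Sema3g*, *Stmn2* and *Gja4* (69, 72 and 69, chosen after the data had been seen) held more *Igf2*, at 170, 62.1 and 44.5 CPM against 21.5, 28.3 and 12.5. Their *Igfbp3* was 566, 270 and 175 CPM against 113, 53.9 and 183, high in the 6 M libraries only.

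The pooled tendons held both sexes in unequal shares. Among cells with either *Xist* or Y-linked genes but not both, *Xist* cells were 72.6%, 41.3% and 52.0% of tenocyte-like and 68.9%, 46.3% and 55.3% of epitenon-like cells. Within each sex, *Igf1* in 6 M DTR stayed below 6 M WT, at 0.675 (*Xist*) and 0.566 (Y) in tenocyte-like and 0.671 and 0.790 in epitenon-like cells. *Igf2* in epitenon-like cells was at 0.185 and 0.116, and *Igfbp3* at 0.391 and 0.544. Other ratios differed between *Xist* and Y cells. These come from different mice of each pool, so sex cannot be told apart from the animals. In tenocyte-like cells the 6 M DTR ratio of *Igfbp4* was 0.493 (*Xist*) and 0.855 (Y), and that of *Igfbp5* 1.48 and 0.977. The *Igfbp4* ratio in epitenon-like cells was 0.949 and 1.67, above 1 in Y cells only, whereas in 21 M B6 it was above 1 in both (1.37 and 1.84). *Igf1r* in tenocyte-like cells was 1.20, 1.25 and 1.23 times higher in *Xist* than in Y cells, and *Igf2* was 0.461, 0.582 and 0.606 times as high. The *Igf2* values came from 199 and 147, 33 and 80, and 37 and 54 UMIs, at levels not clear of the T cell background.

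**Figure D5:**
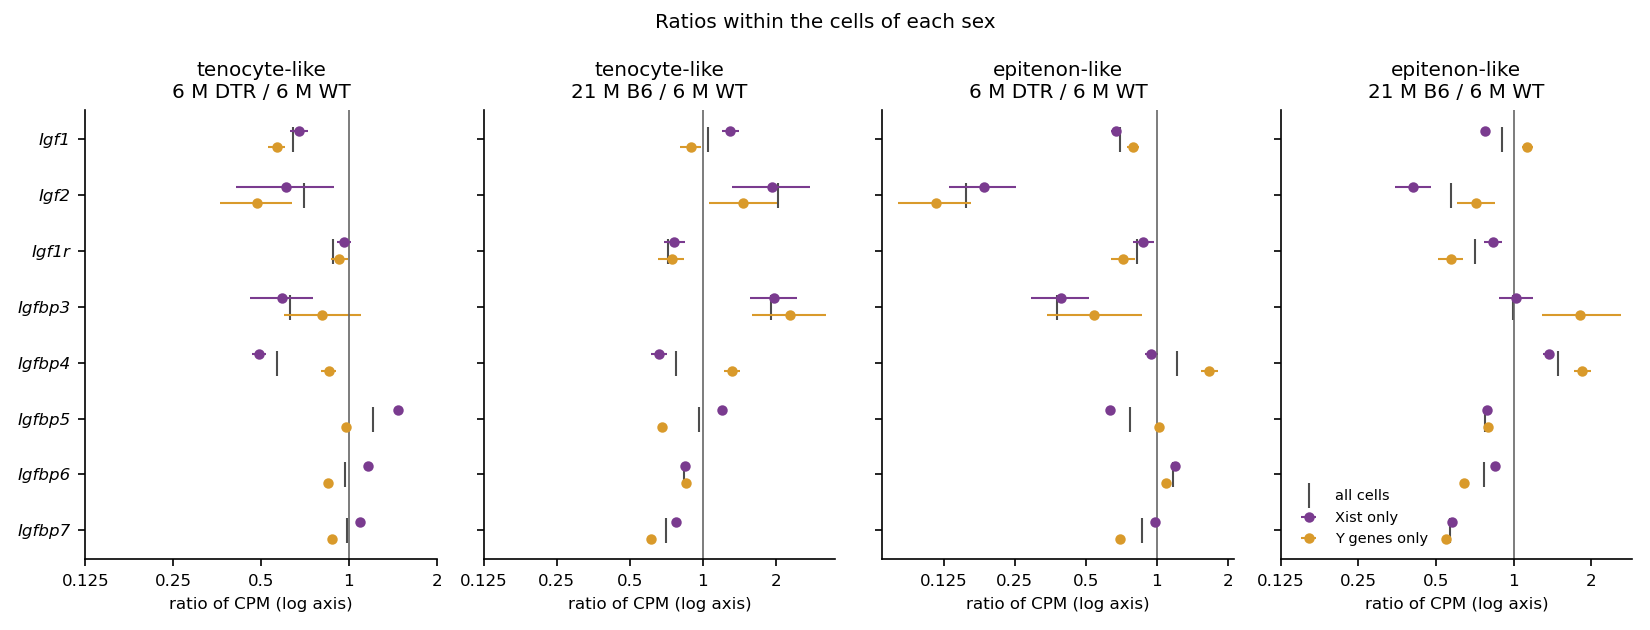
Ratio of each IGF gene's level in 6 M DTR or 21 M B6 to 6 M WT (log axis) within cells with *Xist* only and cells with Y-linked genes only, in tenocyte-like and epitenon-like cells, with exact 95% intervals. *Igf2* in epitenon-like cells of 6 M DTR is low in both sexes (0.185 and 0.116), whereas *Igfbp4* and *Igfbp5* differ between them.

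The other genes of the IGF pathway, 44 in a list of receptors, binding proteins, IGFBP proteases and their inhibitors, the growth hormone axis, adaptors, the PI3K and AKT branch, and mRNA-binding and imprinted partners, were counted in the same way. Of 100 gene and class pairs compared in the 5 classes of the ratio plot in 6 M DTR, 0 were past 2-fold higher and 1 lower (3% of all such pairs over all genes were past 2-fold), *Stc1* (an inhibitor of the protease that cuts IGFBP4) in endothelial-like cells, at 374 CPM in 6 M WT against 140.0 CPM in 6 M DTR. In 21 M B6, 8 of 103 pairs were past 2-fold, 4 higher and 4 lower, a share near the 7.98% over all genes. All 4 higher pairs were *Irs2*, an adaptor of the insulin and IGF1 receptors, at 56.4 and 167 CPM in tenocyte-like, 81.3 and 182 in epitenon-like, 51.9 and 123 in macrophage-like and 20.3 and 73.2 in endothelial-like cells of 6 M WT and 21 M B6. The lower pairs were *Htra4*, a serine protease, in tenocyte-like cells (106 and 27.3 CPM), *Insr*, the insulin receptor, in endothelial-like cells (104 and 43.9 CPM), and *Stc1* in endothelial-like (374 and 123 CPM) and mural-like cells (84.2 and 15.9 CPM). In Schwann-like cells 5 of 27 genes of the list were past 2-fold in 6 M DTR, with *Pappa*, *Stc2* and *Grb14* higher and *Htra3* and *Irs1* lower, beside 14.1% of all genes. In T cell-like cells 0 of 18 were in 6 M DTR (2.92% of all genes) and 3 of 17 in 21 M B6 (11.3%), with *Jak2* higher and *Stat5b* and *Foxo3* lower. *Igf2r*, which clears IGF2, stayed between 38.9 and 69.7 CPM in tenocyte-like and epitenon-like cells of all libraries. *Htra1*, a secreted serine protease able to cut IGF binding proteins, was lower in 21 M B6 in both fibroblast classes, at 550.2, 558 and 288 CPM in tenocyte-like and 215, 356 and 139 CPM in epitenon-like cells, whereas its relative *Htra3* was higher there in epitenon-like cells (226, 196 and 306 CPM).

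The genes whose levels across 21 points were most like each member were named by Pearson's r, as a description. A point was a class of at least 50 cells in 1 library. Schwann-like cells thus entered from the 6 M libraries only and muscle fibre-like cells from 6 M DTR only. The points share libraries, and 6362 genes were compared. For *Igf1* they were *Ifi205* (0.926), *Steap3* (0.923) and *Rnase4* (0.918). For *Igf2* they were *Fzd4* (0.854), *Msrb3* (0.852) and *Spry1* (0.845), and for *Igf1r* *Brd8* (0.927), *Ttc19* (0.919) and *Smc3* (0.917). *Igfbp3* was nearest to *Sema3f* (0.958), *Ephb4* (0.944) and *Pim3* (0.926), genes of vessel guidance among them. *Igfbp4* was nearest to *Cped1* (0.894), *Gstm1* (0.875) and *Errfi1* (0.873), and *Igfbp5* to *Lamb2* (0.973), *Plpp3* (0.957) and *Lix1l* (0.957). *Igfbp6* was nearest to the matrix genes *Ccdc80* (0.977), *Dcn* (0.966) and *Prelp* (0.965), and *Igfbp7* to *Ctdspl* (0.956), *Synm* (0.956) and *Ppic* (0.954). *Igfbp2* was under the limit of 50 CPM in any point and was not compared.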

How the data were processed

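Single-cell RNA-seq libraries of mouse FDL tendons (10x Chromium 3′ kit, version 3) were analysed from the deposited matrices, whose values are raw UMI counts per gene and barcode that the authors had made with Cell Ranger (6.0.1 per the file headers, 2.1.1 in the submitters' processing notes), with genome build, annotation and strand setting not given in the sources used here. *Igf1os*, *Igf2os* and *Polr2b* lie on the opposite strand over *Igf1*, *Igf2* and *Igfbp7* in the GENCODE annotation used for this check. As the strand setting is not known, reads of each pair may not be told apart. On the same strand, the protein-coding gene *Gm49394* and the microRNA gene *Mir483* overlap *Igf2*. Neither is in the gene table, so their reads cannot be told apart from those of *Igf2* here.

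The filter of the study's methods was applied (no fewer than 1000 and no more than 5000 genes, mitochondrial share up to 10%). It left the number of cells stated there in 6 M DTR and 21 M B6 and 2 fewer in 6 M WT. Each cell was put in the class with most of its 10 markers detected (at least 3, lead of at least 2). Classes under 50 cells in a library were left out. UMIs were summed per class and library, with exact 95% Poisson intervals, exact conditional intervals for ratios and exact binomial intervals for shares. Shares were taken after thinning each cell to 2000 UMIs, which left out 1 to 2 shallower cells in some classes. Subsets needed at least 2 UMIs summed over their genes after thinning, and all other cells of the class were the comparison. For the sets chosen after the data had been seen, these UMIs were counted without thinning. A gene was compared between libraries if it reached 20 CPM in 1 of them. Since each group was 1 library, no test was run. Scrublet in scanpy called 1, 6 and 1 doublets, under 0.5% of cells, so the caller had not worked and no cells were removed in the reported values.

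Python 3.11.15, numpy 2.4.6, scipy 1.17.1, pandas 2.3.3 and scanpy 1.11.5 were used, with matplotlib 3.10.9, R 4.3.3, Seurat 5.3.0 (clusters at resolution 0.1 after integration without IGF genes) and edgeR 4.0.16 (TMM factors). The calculation of the ratios and their intervals was checked on simulated Poisson counts. These had no spread between cells, so the check does not cover genes whose UMIs lie in a few cells. The members, markers, subsets and pathway list were chosen with earlier results of these data known. Named genes were the 9 members, pathway genes past 2-fold or highest of their group in a class, and the 3 genes most like each member.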

Additional observations from a re-analysis of the deposited data

Results flagged for a closer look

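Each difference in this section lies between 2 ratios whose intervals do not overlap and fall on opposite sides of 1. None of them was tested, since each group is 1 library.

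Between cell classes, the ratio of 6 M DTR to 6 M WT differed for *Igf1* by a factor of 2.69 (1.16 in macrophage-like, 0.432 in mural-like cells), for *Igfbp4* by 2.4 (1.32 in mural-like, 0.55 in endothelial-like cells) and for *Igfbp5* by 1.76 (1.21 in tenocyte-like, 0.687 in mural-like cells). The mural *Igf1* ratio rested on 4 cells of 6 M WT and 9 of 6 M DTR, and was 3.1 with the stricter gate. For *Igfbp6* the factor was 1.59 (1.17 in epitenon-like, 0.735 in endothelial-like cells, the latter 1.68 with a mitochondrial limit of 5%, and 5 cells held 72.7% of its UMIs in 6 M WT and 66.7% in 6 M DTR), and for *Igfbp7* it was 1.77 (1.15 in endothelial-like, 0.65 in macrophage-like cells, the latter 1.24 without the highest 5% of doublet scores). In 6 M DTR endothelial *Igfbp6* (77.1 CPM) and macrophage *Igfbp7* (82.39 CPM) were not above the T cell level (86.65 and 124.2 CPM). The part of free RNA in these 2 ratios was not tested.

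The ratio of 21 M B6 to 6 M WT differed between classes for *Igf1* by a factor of 3.24 (2.91 in endothelial-like, 0.899 in epitenon-like cells) and for *Igfbp3* by 5.03 (2.6 in mural-like, 0.517 in endothelial-like cells). For *Igfbp4* the factor was 4.09 (1.84 in macrophage-like, 0.45 in endothelial-like cells), and for *Igfbp7* it was 3.2 (1.1 in endothelial-like, 0.344 in macrophage-like cells). Several of these 21 M B6 ratios moved under other settings. *Igf1* was 1.23 in endothelial-like cells with the stricter gate and 1.09 in epitenon-like cells with TMM scaling. Mural *Igfbp3* was 1.31 with no upper limit of genes, and macrophage *Igfbp7* was 0.775 with the T cell level subtracted.

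Between cells with *Xist* and cells with Y-linked genes, tenocyte-like cells differed in the 6 M DTR ratio of *Igfbp5* by a factor of 1.51 (1.48 in *Xist* cells, 0.977 in Y cells), of *Igfbp6* by 1.37 (1.16 and 0.848) and of *Igfbp7* by 1.25 (1.09 and 0.873). In 21 M B6 they differed for *Igf1* by 1.46 (1.3 in *Xist* cells, 0.891 in Y cells), for *Igfbp4* by 2 (0.66 and 1.32) and for *Igfbp5* by 1.76 (1.2 and 0.68). Epitenon-like cells differed for *Igf1* in 21 M B6 by 1.46 (0.776 in *Xist* cells, 1.13 in Y cells). Macrophage-like cells differed in 6 M DTR for *Igfbp5* by 2.12 (0.763 in *Xist* cells, 1.62 in Y cells) and for *Igfbp6* by 1.71 (0.703 and 1.2), and in 21 M B6 for *Igfbp5* by 2.55 (1.69 in *Xist* cells, 0.664 in Y cells). In macrophage-like cells 5 cells held 43.9%, 37.0% and 58.5% of the *Igfbp5* UMIs. Macrophage *Igfbp5* overlapped the T cell level in 6 M WT (70.78 and 52.22 CPM), and macrophage *Igfbp6* did in 6 M DTR (93.87 and 86.65 CPM). Over all macrophage-like cells the 6 M DTR ratio of *Igfbp6* was 0.887. It was 0.129 with the T cell level subtracted and 1.79 without the highest 5% of doublet scores. The part of free or doublet RNA was not tested.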

How the results depend on the processing

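No paired analysis was possible because each group is 1 library. Alternatives were run only for the 5 classes of the ratio plot and for the comparisons with 6 M WT. Ratios in T cell-like and Schwann-like cells, and those of 21 M B6 to 6 M DTR, were not put through them. Of the single ratios under an alternative, 446 stayed within the counting interval of the value as reported and 263 moved outside it. Removal of the called doublets (1, 6 and 1 cells) was among the alternatives, and ratios could hardly move under it. Among ratios past 2-fold, 1 turned round, under 2 settings: *Igf1* in mural-like cells, 6 M DTR against 6 M WT, at 0.432 as reported, 1.02 without the highest 5% of doublet scores and 3.1 with the stricter gate. Over all sizes, 64 of 711 values lay on the other side of 1, from 25 of 71 ratios. Among them in 6 M DTR were *Igfbp7* (0.65 as reported, 1.24) and *Igfbp6* (0.887, 1.79) in macrophage-like cells without the highest 5% of doublet scores, and *Igfbp6* in endothelial-like cells (0.735, 1.68) with a mitochondrial limit of 5%. *Igfbp4* in tenocyte-like cells of 21 M B6 (0.779) was 1.32 in Y cells. The highest class, among those that still gave a value, stayed the highest in 66 cases. The 6 others were *Igfbp5* in 6 M WT with the stricter gate and in 21 M B6 with the limit of 5% and with clusters, *Igf1r* in 6 M WT with the limit of 5%, and *Igfbp4* in 6 M WT and *Igfbp6* in 6 M DTR with clusters. Where the reported highest class gave no value, the next class was compared instead. The 66 cases include these, among them *Igf2*, *Igf1r*, *Igfbp3* and *Igfbp7* with clusters in every library. Such cases cannot show whether the reported highest class would have stayed so. Of the 35 pairs of member and class in 6 M DTR, 5 were past 2-fold, beside 3% of such pairs over all genes. The count was 3 with a mitochondrial limit of 5%, 2 with classes from clusters and 1 in Y cells. It was 8 with the T cell level subtracted, 9 with no lower limit other than 3 UMIs and 10 at 1.5-fold. Of the 36 pairs in 21 M B6, 6 were past 2-fold, beside 7.98% of such pairs over all genes. That count was 0 with the limit of 5%, 2 without the highest 5% of doublet scores, 2 with clusters and 3 with the stricter gate. It was 2 in *Xist* cells, 2 in Y cells and 14 at 1.5-fold. For the pathway list the 6 M DTR count of 1 became 0 with clusters, 3 with the stricter gate, 2 in *Xist* cells, 21 with no lower limit and 8 at 1.5-fold. Its 21 M B6 count of 8 became 5 with the limit of 5%, 5 with clusters, 5 in *Xist* cells, 32 with no lower limit and 20 at 1.5-fold. The share over all genes was not counted under these alternatives, so no background stands beside the changed counts of members or pathway genes. Clusters held endothelial-like and mural-like cells in 1 unnamed cluster, and classes under 50 cells gave no value, so several lower counts rest on fewer pairs (20 of 36 with the limit of 5% in 21 M B6). TMM scaling turned some ratios near 1, among them *Igf1* in epitenon-like (1.09) and *Igfbp5* in tenocyte-like cells (1.13) of 21 M B6. The cause of the other differences was not tested. *Igf2* in epitenon-like cells of 6 M DTR was past 2-fold in all 12 settings. Among these, TMM scaling and removal of the called doublets left the ratio at 0.155 and so tested little. The T cell level was not subtracted for *Igf1r*, which T cells use. The alternatives without the highest doublet scores and without the 5 richest cells, and the arterial and *Scn7a* cells, were chosen after seeing the data. Depth limits *Igfbp2* throughout and *Igf1*, *Igf2* and *Igfbp3* in vascular classes.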

Other observations

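Endothelial-like cells with the lymphatic genes *Prox1*, *Mmrn1*, *Lyve1* and *Ccl21a* (11, 15 and 7 cells in the order of libraries used above, chosen after the data had been seen) held 731 of 841, 624 of 846 and 327 of 696 of that class's *Igfbp5* UMIs. Its level was 5980, 4989 and 2830 CPM in them and 83.6, 164 and 279.7 CPM in the other endothelial-like cells. *Igfbp7* ran the other way, at 81.8, 48.0 and 1134 CPM in them and 2031, 2349 and 2142 CPM in the others. The binding proteins thus split the endothelial-like cells, with the narrowest gap in 21 M B6.

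In epitenon-like cells *Igfbp5* was detected less often where *Igf1* was detected. After thinning, *Igfbp5* was found in 45.2% of cells with *Igf1* and 67.0% of cells without it in 6 M WT, in 43.6% and 52.6% in 6 M DTR, and in 41.0% and 63.1% in 21 M B6. These are cells of 1 library each, so the values are a description.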
